A study of Mus musculus with 24 samples.

Results

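The genes described here encode hydrolases and membrane proteins of the lysosome, together with a pair of transcription factors that switch such genes on. The members are a list of gene symbols whose rule uses no measured value, although the list was drawn up with earlier results of these data known. All 38 of 38 were found, out of 52636 genes in the deposited tables. They fall into 9 cysteine and aspartic proteases (the cathepsins, with legumain counted among the 9), 3 other enzymes (peptidases and the thioesterase Ppt1), 13 glycosidases and sulfatases, and 5 lipid hydrolases and sphingolipid activators. A further 6 are membrane proteins, a channel and progranulin, and the last are the transcription factors Tfeb and Tfe3. All 38 had at least 1 TPM in enough libraries to be tested in each comparison.

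The lysosome is the acidic compartment in which cells break down proteins, glycans, nucleic acids and lipids, and macrophages, which live by engulfing material, are rich in it. Its soluble enzymes are made on the endoplasmic reticulum, tagged with mannose phosphate in the Golgi and carried to the lysosome by receptors, where low pH and cleavage activate them. TFEB and TFE3 are held in the cytosol by the kinase mTORC1 at the lysosomal surface, and on starvation or lysosomal stress they enter the nucleus and bind the CLEAR element, a motif built around the E-box CACGTG.

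Poly(A) RNA was measured in macrophages grown from bone marrow of mice aged 8 to 12 weeks for 6 days in medium conditioned by L cells. All 6 mice carried Csf1r-iCre, a Cre recombinase driven by the promoter of the macrophage colony-stimulating factor receptor, and ribosomal protein L10a fused to EGFP. The controls (HET-97, HET-102, HET-129) had the genotype HuR+/fl, and so carried 1 floxed copy themselves. The mice labelled as conditional knockouts (KO-176, KO-281, KO-301) had the genotype HuRfl/fl. HuR, the product of Elavl1, attaches to AU-rich elements in messenger RNAs. Separate plates from each mouse were kept at 20% oxygen (normoxia) or at 1% oxygen (hypoxia) for 18 h, with equal carbon dioxide. Each lysate was split into total RNA and RNA bound to tagged ribosomes (TRAP, translating ribosome affinity purification), which gave 24 libraries in 8 groups of 3. Values within a group are listed below in the mouse order just given, controls first.

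Elavl1, the targeted gene, did not separate the genotypes in total RNA. Its level ranged from 21.2 to 59.8 TPM over the 6 control libraries and from 26.1 to 36.1 TPM over the 6 libraries labelled knockout, and in TRAP RNA from 10.5 to 18.1 and from 0.840 to 23.5 TPM. Directions between genotypes below therefore rest on the labels alone.

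For 35 of the 38 members RefSeq gave a promoter window of 250 bases before to 50 bases after an annotated start on GRCm38.p6, 41 windows in all, and Ctsb, Ctsh and Asah1 are named only. The E-box CACGTG, searched on both strands, stood in the windows of 11 of 35 members (31.4%) and of 8.09% of all 27025 genes with a window. Those members were Ctsd, Ctsl, Lgmn, Ctsa, Gla, Glb1, Gaa, Naglu, Arsa, Lamp1 and Mcoln1. The shorter core ACGTG, which every CACGTG contains, was in 13 of 35 members (37.1%) and in 21.8% of genes. The longer CLEAR palindrome, searched as a fixed sequence, was in 0 of 35 members and in 0.37% of genes. Variants of the palindrome were not counted, so the 0 does not show that these windows lack CLEAR elements. A match describes the letters and shows no binding. Stretches with several copies of the E-box are printed for Lamp1, Ctsa, Mcoln1 and Ctsd, and that of Gla, which also held several, is not printed. The stretches around the RefSeq start of Lipa, Gm2a, Arsb and Ids, which changed in hypoxia and have no copy in the window, follow for comparison. For Gm2a the window ends at 55098034, before the gene start of 55098115 given below, so it does not cover that start. All run 5′ to 3′ with CACGTG in capitals.
Lamp1 (chr8:13159085-13159166, plus strand): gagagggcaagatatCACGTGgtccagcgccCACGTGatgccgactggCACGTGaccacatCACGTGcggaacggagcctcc
Ctsa (chr2:164833746-164833798, plus strand): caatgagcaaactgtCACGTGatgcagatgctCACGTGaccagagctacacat
Mcoln1 (chr8:3500433-3500494, plus strand): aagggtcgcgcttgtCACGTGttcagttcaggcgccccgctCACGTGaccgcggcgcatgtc
Ctsd (chr7:142387905-142388077, minus strand): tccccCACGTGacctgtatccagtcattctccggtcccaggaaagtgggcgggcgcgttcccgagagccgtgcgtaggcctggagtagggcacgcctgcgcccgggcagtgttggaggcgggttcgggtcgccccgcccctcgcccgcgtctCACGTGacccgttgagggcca
Lipa (chr19:34527460-34527529, minus strand): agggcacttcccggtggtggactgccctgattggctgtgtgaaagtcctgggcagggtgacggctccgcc
Gm2a (chr11:55097930-55097999, plus strand): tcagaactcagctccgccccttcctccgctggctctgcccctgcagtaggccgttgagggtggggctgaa
Arsb (chr13:93771624-93771693, plus strand): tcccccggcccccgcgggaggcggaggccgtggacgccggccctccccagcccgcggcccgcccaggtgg
Ids (chrX:70365071-70365140, minus strand): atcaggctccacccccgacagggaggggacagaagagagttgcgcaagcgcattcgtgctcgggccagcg
Lamp1 held 4 copies close to its start, and Ctsa, at 1 of its 2 annotated starts, held 2. Mcoln1, Ctsd and Gla held 2 each. Of the 6 members that passed the test for hypoxia below, Lamp1 and Ctsa had the E-box in a window and Lipa, Gm2a, Arsb and Ids did not.

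The labelled cell type was checked against its markers: 10 of 10 macrophage markers, among them Adgre1, Csf1r and Cd68, were above 1 TPM in all 24 libraries. Their summed level in total RNA ran from 22884 to 27214 TPM in controls and from 14578 to 21706 TPM in labelled knockouts, so the genotypes did not overlap. In TRAP RNA the sums overlapped, at 11645 to 21076 TPM in controls and 10877 to 14554 TPM in labelled knockouts. Lyz2 dominates these sums, with a median of 15613 TPM over the 24 libraries, and Cd68 was next at 1657 TPM. Of 8 osteoclast markers Calcr and Oscar were at 0 in all 24 libraries, while Atp6v0d2 (35.3 to 206 TPM), Acp5 (1.65 to 66.2 TPM) and Mmp9 (1.49 to 66.9 TPM) were present in all, and the summed level in total RNA was 115 to 243 TPM. Of 9 neutrophil markers Ly6g was at 0 in all, while Mmp8 (6.58 to 76.7 TPM) and S100a8 (2.81 to 46.9 TPM) were present in all. Elane, Mpo, Ltf and Camp had a median of 0 TPM, S100a9 ran from 0 to 50.8 TPM and Ngp from 0 to 6.06 TPM. The 7 dendritic cell markers summed in total RNA to 5.07 to 6.65 TPM in KO-301 and to at most 1.70 TPM in the other mice. Of 6 lymphocyte markers Cd3e, Cd3g, Cd79a and Nkg7 were at 0 in all and Cd79b ran from 0.471 to 10.2 TPM. Red cell markers summed to at most 1.89 TPM in any library. Mouse KO-301 had the highest summed fibroblast markers in total RNA (49.7 to 60.3 TPM), followed by HET-129 (24.6 to 30.8 TPM), against 1.63 to 10.4 TPM in the other 4 mice, and KO-301 also had the highest neutrophil sum (122 to 178 TPM against 31.4 to 91.2 TPM). The TRAP libraries of HET-129 and KO-301 had the fewest genes at 1 TPM or more, 9823 in normoxia and 10274 in hypoxia for HET-129 and 10098 and 10205 for KO-301, where the other 8 had 10464 to 11207. Counts and medians of the members' change in hypoxia over the 6 mice are given with and without mice HET-129 and KO-301. Values of the other gene lists are given over all 6 mice only.

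The members together took 2.31 to 4.16% of the transcripts in total RNA libraries (median 3.36%) and 1.91 to 2.93% in TRAP libraries (median 2.28%). TPM is scaled to transcript length, so levels may be set beside each other between genes. Ctsb, Psap and Ctsd had the highest means in total RNA. Ctsb, a cysteine protease that cuts proteins internally and from their ends, stood in total RNA at 7039.7, 5091 and 5448 TPM in normoxic and 7149, 5129 and 5549.5 TPM in hypoxic controls, and 5434, 3570.1 and 4951 TPM in normoxic and 6065, 4018 and 5178 TPM in hypoxic labelled knockouts. Psap, the precursor of the saposins that lift sphingolipids towards their hydrolases, stood in total RNA at 7052, 5086 and 5014 TPM in normoxic and 7581, 4915 and 5323 TPM in hypoxic controls, and 5147, 3867 and 4641 TPM in normoxic and 5737, 4570.2 and 5589 TPM in hypoxic labelled knockouts. Ctsd, the main aspartic protease of the compartment, stood in total RNA at 8322, 5398 and 5189.8 TPM in normoxic and 8325, 5660.0 and 4797 TPM in hypoxic controls, and 5075, 2935 and 3311 TPM in normoxic and 5282, 3558 and 3711 TPM in hypoxic labelled knockouts. All 3 were highest in mouse HET-97 and lowest in KO-281, and the oxygen groups overlapped for each. Ctsd alone of them was lower in every normoxic labelled knockout than in any normoxic control, while its hypoxic groups overlapped. Averaged over oxygen, its genotypes overlapped too, and the share of all genes that lie apart in normoxia was not determined. At the other end Ctsk, a collagenase best known from osteoclasts, ranged in total RNA from 8.75 to 43.2 TPM, with both libraries of KO-301 highest, and Arsa, which removes sulfate from sulfatide, from 6.76 to 20.4 TPM.

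Levels varied between the mice. The range from the lowest to the highest of the 6 mice on the log2(TPM + 1) scale was wider than the mean change in hypoxia for 38 of 38 members in each fraction, as it was for 98.4% (total RNA) and 98.9% (TRAP RNA) of the genes tested. The median range between mice was 0.93 in total RNA (0.87 over all genes) and 1.10 in TRAP RNA (1.04 over all genes), and the median size of the members' hypoxia change was 0.11 and 0.17. Ctsl, a cysteine protease, varied most among the cathepsins. In total RNA, Ctsl stood at 2071, 882 and 956 TPM in normoxic and 2344, 867 and 1095 TPM in hypoxic controls. Ctsl in labelled knockouts was at 1188, 259.9 and 584 TPM in normoxia and 1434, 269 and 724 TPM in hypoxia. Mouse HET-97 was highest and KO-281 lowest, 3.05 apart on the log2 scale, with the groups overlapping. Mice HET-129 and KO-301, 1 of each genotype, were the 2 highest for Ctsc, Ctss, Ctsz, Lgmn and Gla in total RNA (5 of 38 members, 11.5% of all genes) and the 2 lowest for Ctsa, Gusb, Hexa, Manba, Naglu and Arsb (6 of 38, 22.9% of all genes).

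**Figure D1:**
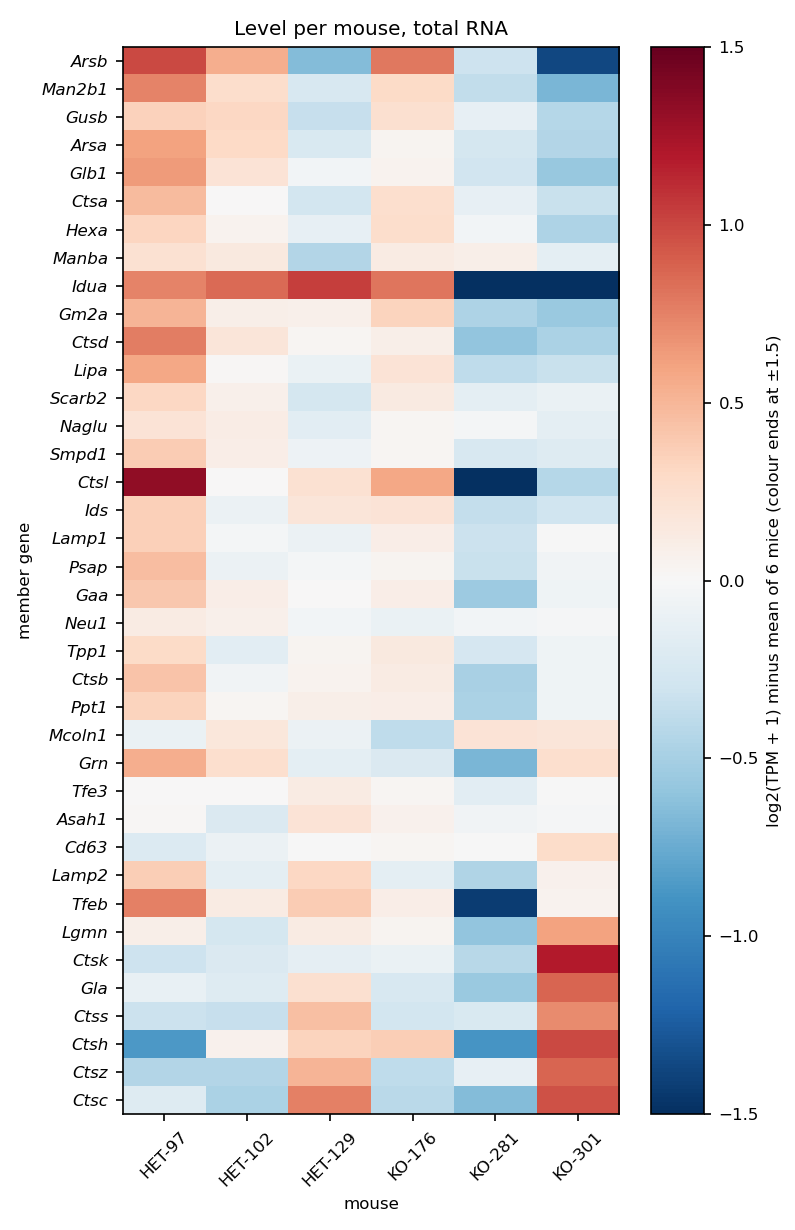
Level of each of the 38 members in each of the 6 mice in total RNA, as log2(TPM + 1) averaged over both oxygen levels minus the mean of the 6 mice (colour, red higher and blue lower; colours end at ±1.5). Ctsc, Ctss and Ctsz at the bottom are highest in HET-129 and KO-301, Ctsl differs by 3.05 between HET-97 and KO-281, and Idua is low in KO-281 and KO-301 alone.

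Whether 18 h of hypoxia changed lysosomal transcripts was tested first in total RNA, within mice. Lipa, lysosomal acid lipase, fell, and Gm2a, Arsb, Lamp1, Ids and Ctsa rose, which made 5 of 38 members higher and 1 of 38 lower at an adjusted p under 0.05, where 1.56% and 2.4% of the 12403 genes tested were higher and lower. The changes were small: the 38 members ran from -0.44 ± 0.05 to 0.47 ± 0.08 on the log2 scale (fitted mean ± SE over 6 mice, here and below), with a median of 0.08 against -0.01 over all genes. Of the members 28 of 38 were above 0 (73.7%), as were 47.8% of all genes. Without HET-129 and KO-301 the count was 21 of 38, with a median of 0.060 against -0.027 over all genes. Ctsb, Ctsa, Ids, Man2b1, Arsb, Gm2a and Lamp1 were higher in 6 of 6 mice (7 of 38, 6.88% of all genes), and Lipa was lower in 6 of 6 (1 of 38, 9.43% of all genes). The adjusted p are those of limma over all genes. Leaving out 1 mouse left 1 to 3 members called, Lipa each time, and leaving out HET-129 and KO-301 together left 0. Over all genes 492 were called with the 6 mice, 48 to 224 with 1 mouse left out, and 8 without HET-129 and KO-301. Fewer macrophages in a culture and less RNA per macrophage cannot be told apart in such bulk samples.

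**Figure D2:**
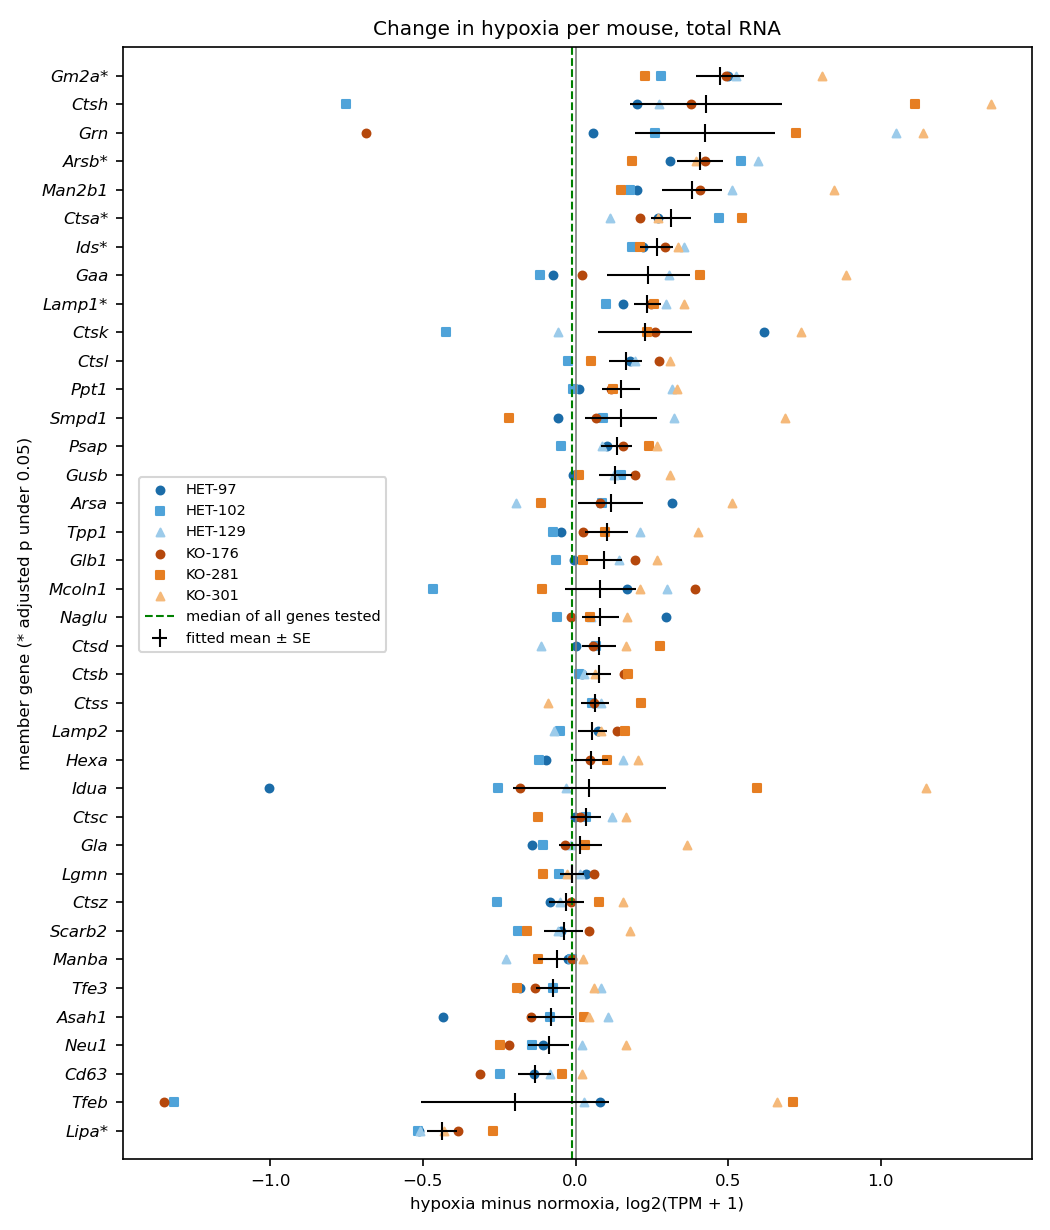
Hypoxia minus normoxia in total RNA for the 38 members, on the log2(TPM + 1) scale (horizontal axis); coloured points are the 6 mice, black bars the fitted mean ± SE, the dashed line the median of all genes tested (-0.01), and a star marks an adjusted p under 0.05. Gm2a and Arsb lie above 0 and Lipa below 0 in all 6 mice, whereas Ctsh, Grn, Idua and Tfeb, with wide bars, scatter to both sides.

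Lipa (ENSMUSG00000024781, chromosome 19, 34492318 to 34527474, minus strand, GRCm38) encodes the only acid lipase of the lysosome, which frees cholesterol and fatty acids from the esters of engulfed lipoproteins. In total RNA, Lipa stood at 852, 575 and 529.7 TPM in normoxic and 596, 402 and 372 TPM in hypoxic controls. Lipa in labelled knockouts was at 624, 400.3 and 438 TPM in normoxia and 477, 332 and 325 TPM in hypoxia. Each of the 6 mice was lower in hypoxia, yet the oxygen groups overlapped. The mean fell from 570.0 ± 161 to 417 ± 104 TPM (SD, n = 6), a log2 difference of -0.44 ± 0.05 (adjusted p 0.00997). In TRAP RNA, Lipa stood at 343, 233 and 121 TPM in normoxic and 262, 157 and 147 TPM in hypoxic controls, and 214, 140.4 and 161 TPM in normoxic and 175, 122 and 119 TPM in hypoxic labelled knockouts. It was lower in hypoxia in 5 of 6 mice, and higher in HET-129. The TRAP difference of -0.27 ± 0.11 had an adjusted p of 0.325.

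Gm2a (ENSMUSG00000000594, chromosome 11, 55098115 to 55113029, plus strand, GRCm38) encodes the activator that presents the ganglioside GM2 to hexosaminidase A. In total RNA, Gm2a stood at 245, 198 and 179.8 TPM in normoxic and 346, 240.1 and 259 TPM in hypoxic controls. Gm2a in labelled knockouts was at 217, 137 and 105 TPM in normoxia and 306, 159.9 and 184 TPM in hypoxia. All 6 mice were higher in hypoxia, most of all KO-301, and the oxygen groups overlapped. The mean rose from 180.0 ± 51.7 to 249 ± 70.7 TPM (SD, n = 6), a log2 difference of 0.47 ± 0.08 (adjusted p 0.0261). In TRAP RNA, Gm2a stood at 167, 111 and 77.8 TPM in normoxic and 246, 142 and 171 TPM in hypoxic controls, and 109, 65.0 and 65.9 TPM in normoxic and 165, 91.8 and 114 TPM in hypoxic labelled knockouts. Again all 6 mice were higher, by 0.65 ± 0.11, which missed the threshold with an adjusted p of 0.0961.

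Arsb and Ids encode sulfatases that strip sulfate from glycosaminoglycans, the former from dermatan and chondroitin sulfate and the latter from heparan and dermatan sulfate. In total RNA, Arsb (ENSMUSG00000042082, chromosome 13, 93771630 to 93943016, plus strand) stood at 31.7, 21.2 and 8.49 TPM in normoxic and 39.5, 31.4 and 13.4 TPM in hypoxic controls. Arsb in labelled knockouts was at 26.3, 12.9 and 5.20 TPM in normoxia and 35.6, 14.8 and 7.15 TPM in hypoxia. It was lowest in KO-301 and HET-129 at both oxygen levels, and rose in 6 of 6 mice by 0.41 ± 0.08 (adjusted p 0.0334). In TRAP RNA, Arsb stood at 10.7, 8.48 and 2.03 TPM in normoxic and 15.7, 11.2 and 5.04 TPM in hypoxic controls, and 8.17, 5.11 and 1.85 TPM in normoxic and 11.4, 7.03 and 2.45 TPM in hypoxic labelled knockouts. All 6 mice were higher there too, by 0.50 ± 0.14 (adjusted p 0.212). In total RNA, Ids (ENSMUSG00000035847, chromosome X, 70343069 to 70365084, minus strand) stood at 44.5, 32.6 and 37.2 TPM in normoxic and 52.0, 37.2 and 47.9 TPM in hypoxic controls. Ids in labelled knockouts was at 38.9, 26.7 and 26.7 TPM in normoxia and 47.8, 31.0 and 33.9 TPM in hypoxia. Ids was higher in hypoxia in each mouse by 0.27 ± 0.05 (adjusted p 0.0413). In TRAP RNA, Ids stood at 9.75, 5.85 and 1.99 TPM in normoxic and 13.1, 7.65 and 5.51 TPM in hypoxic controls, and 6.43, 5.17 and 3.01 TPM in normoxic and 8.30, 6.72 and 4.03 TPM in hypoxic labelled knockouts. The TRAP levels of Ids were far lower, and were higher in hypoxia in 6 of 6 mice by 0.47 ± 0.15 (adjusted p 0.238). The oxygen groups overlapped for both genes in both fractions.

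Lamp1 encodes the most abundant glycoprotein of the lysosomal membrane, and Ctsa a carboxypeptidase that also shields beta-galactosidase and neuraminidase, the products of Glb1 and Neu1. In total RNA, Lamp1 (ENSMUSG00000031447, chromosome 8, 13159161 to 13175338, plus strand) stood at 2257, 1763 and 1574 TPM in normoxic and 2517, 1891 and 1933 TPM in hypoxic controls. Lamp1 in labelled knockouts was at 1827, 1355 and 1635 TPM in normoxia and 2167, 1620.0 and 2089.7 TPM in hypoxia. Every mouse was higher in hypoxia, by 0.24 ± 0.05 (adjusted p 0.0373). In TRAP RNA, Lamp1 stood at 1576, 1235 and 824 TPM in normoxic and 1860.3, 1331 and 1373 TPM in hypoxic controls, and 1192, 948 and 1175 TPM in normoxic and 1408, 1073 and 1361 TPM in hypoxic labelled knockouts, and every mouse was higher by 0.29 ± 0.09 (adjusted p 0.224). Ctsa, shown in full after its values were seen, stood in total RNA at 555, 375 and 348 TPM in normoxic and 669, 519 and 376 TPM in hypoxic controls, and 483, 332 and 317 TPM in normoxic and 559.5, 485 and 382 TPM in hypoxic labelled knockouts. It rose in 6 of 6 mice by 0.31 ± 0.06 (adjusted p 0.0425). In TRAP RNA, Ctsa stood at 437, 293 and 243 TPM in normoxic and 367, 295 and 341 TPM in hypoxic controls, and 315, 241 and 271 TPM in normoxic and 333, 282 and 326 TPM in hypoxic labelled knockouts, higher in hypoxia in 5 of 6 mice and lower in HET-97, a difference of 0.14 ± 0.10 (adjusted p 0.552). Glb1 and Neu1 differed in total RNA by 0.09 ± 0.06 and -0.09 ± 0.07, with adjusted p of 0.404 and 0.477.

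**Figure D3:**
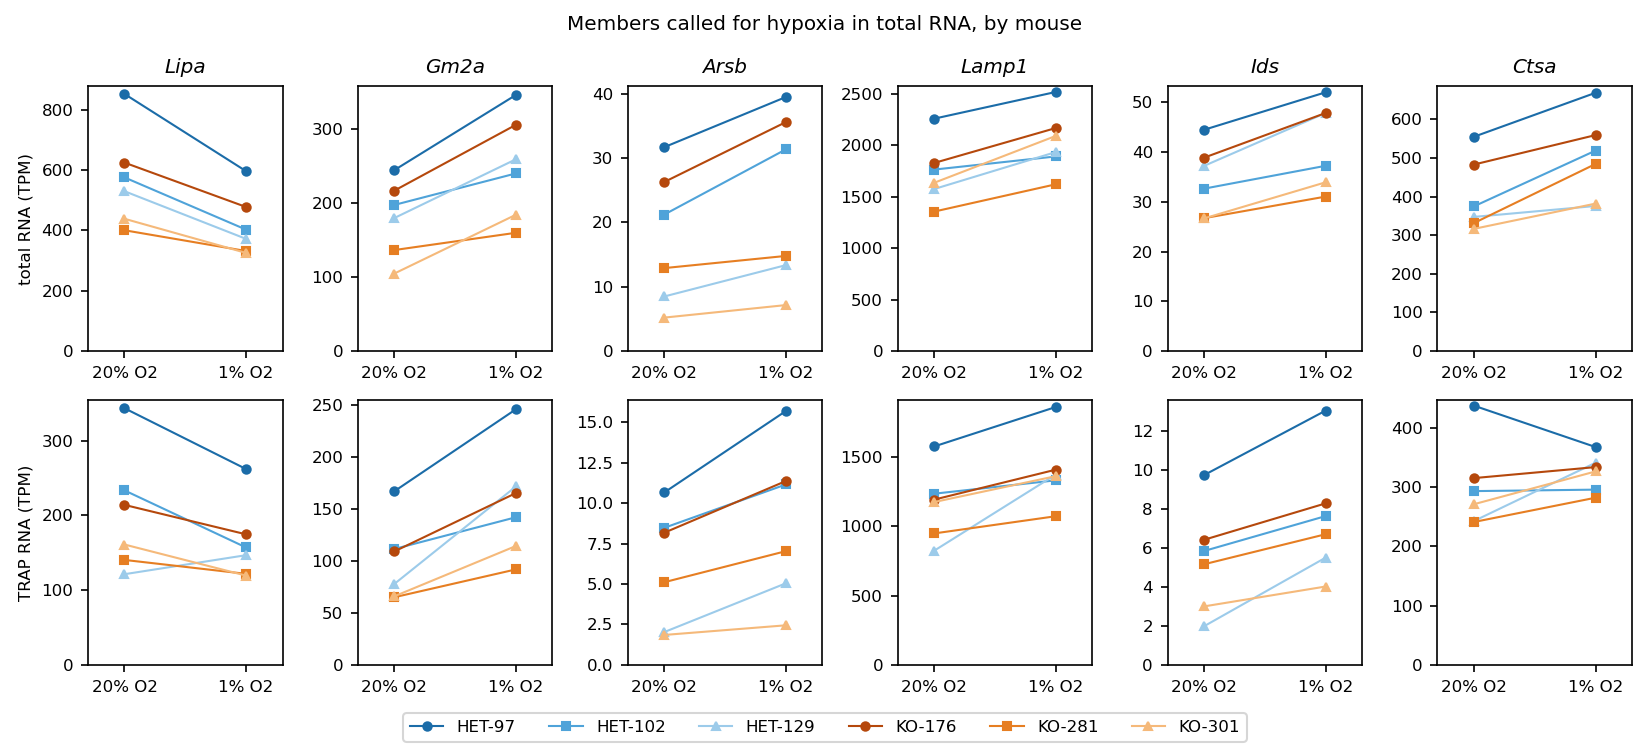
TPM of the 6 members called for hypoxia in total RNA (columns) at 20% and 1% oxygen, with total RNA in the upper and TRAP RNA in the lower row; each line joins the pair of libraries of 1 mouse, and the vertical axes start at 0. In total RNA all 6 lines fall for Lipa and rise for the other 5 genes, while the highest and lowest mouse lie further apart than the ends of any 1 line.

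Exons of 13 members share bases with another annotated gene, and whether reads were counted by strand is not stated, so their values may hold reads of the neighbour. Arsb shared 32.3% of its exon bases with Gm26527 on the opposite strand, Ctsd 34.4% with Gm49369 on the same strand, Ctsl 26.8% with its antisense Gm47123, and Ctsb 12.8% with Fdft1. Lamp1 shared 9.31% with Grtp1 and Ctsa 10.5% with Pltp, whereas Lipa, Gm2a and Ids shared none.

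Described by role, 7 of 9 cathepsins and legumain were above 0 in hypoxic total RNA, from -0.03 to 0.43, and 0 of 9 passed the test, as did 0 of the transcription factors. Ctsh, an aminopeptidase, had the highest of those values at 0.43 ± 0.25, but ran from -0.75 in HET-102 to 1.36 in KO-301 and had an adjusted p of 0.351. Among the glycosidases and sulfatases 11 of 13 were above 0, with a median of 0.09, and 2 passed, Arsb and Ids. Man2b1, lysosomal alpha-mannosidase, was higher in 6 of 6 mice by 0.38 ± 0.10 and missed the threshold with an adjusted p of 0.0723. It passed under quantile normalisation (0.0393) and median-of-ratios scaling (0.0445). Of the lipid group 3 of 5 were above 0, with Gm2a called higher and Lipa lower. Asah1 (acid ceramidase) differed by -0.08 ± 0.07 and Smpd1 (acid sphingomyelinase) by 0.15 ± 0.12, neither past the threshold. Of the 6 membrane proteins, channel and progranulin 4 were above 0 and Lamp1 was called. Tfeb, the master factor, stood in total RNA at 33.1, 34.7 and 25.8 TPM in normoxic and 35.0, 13.3 and 26.3 TPM in hypoxic controls, and 34.5, 5.06 and 16.1 TPM in normoxic and 13.0, 8.92 and 25.97 TPM in hypoxic labelled knockouts. Its change was 0.08, -1.32 and 0.03 in controls and -1.35, 0.71 and 0.66 in labelled knockouts, so mice went both ways, and the mean of -0.20 ± 0.31 had an adjusted p of 0.743. Tfe3, its close relative, stood in total RNA at 113, 109.8 and 113 TPM in normoxic and 99.8, 104 and 119 TPM in hypoxic controls, and 114, 101.9 and 103 TPM in normoxic and 104, 89.1 and 108 TPM in hypoxic labelled knockouts, within a narrow band, and differed by -0.07 ± 0.06 (adjusted p 0.482). Mcoln1, a lysosomal calcium channel whose opening activates TFEB, stood in total RNA at 26.9, 41.0 and 25.8 TPM in normoxic and 30.4, 29.4 and 32.0 TPM in hypoxic controls, and 20.3, 37.1 and 32.5 TPM in normoxic and 27.0, 34.2 and 37.8 TPM in hypoxic labelled knockouts, with overlapping groups, and differed by 0.08 ± 0.12 (adjusted p 0.717).

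In TRAP RNA 0 of 38 members passed the test for hypoxia with limma and 9 had an unadjusted p under 0.05, and under every other setting tried the count was also 0. Over all 11676 genes 0.0257% were called higher and 0.00856% lower. Of the members 25 of 38 were above 0, with a median of 0.12 against 0.03 over all genes. Without HET-129 the median was 0.057 (-0.003 over all genes) with 25 of 38 above 0. Without HET-129 and KO-301 the median was 0.022 (-0.005 over all genes) with 21 of 38 above 0. Ctsl, Ids, Man2b1, Arsb, Gm2a and Lamp1 were higher in 6 of 6 mice (6 of 38, 5.33% of all genes), and Cd63 was lower in 6 of 6 (1 of 38, 5.06% of all genes). Cd63, a tetraspanin of lysosomes and secreted vesicles, stood in TRAP RNA at 1445, 1638 and 3056 TPM in normoxic and 1157, 1307 and 2079.7 TPM in hypoxic controls, and 1950.5, 2022 and 3001 TPM in normoxic and 1594, 1749 and 2703 TPM in hypoxic labelled knockouts. HET-129 and KO-301 were highest, the oxygen groups overlapped, and the difference of -0.31 ± 0.06 had an adjusted p of 0.165. In total RNA, Cd63 stood at 1406, 1587 and 1586 TPM in normoxic and 1279, 1336 and 1497 TPM in hypoxic controls, and 1751, 1557 and 1860.1 TPM in normoxic and 1409.7, 1510.1 and 1887 TPM in hypoxic labelled knockouts, lower in hypoxia in 5 of 6 mice, with a difference of -0.13 ± 0.05 (adjusted p 0.19).

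Some members had TRAP values that jumped between libraries of a group. Tpp1, a peptidase that removes tripeptides, stood in TRAP RNA at 103, 86.3 and 16.8 TPM in normoxic and 98.3, 21.1 and 89.1 TPM in hypoxic controls, and 98.0, 69.8 and 75.6 TPM in normoxic and 21.9, 20.2 and 42.4 TPM in hypoxic labelled knockouts. Normoxic HET-129 and hypoxic HET-102, KO-176 and KO-281 were low, the other libraries at least 42.4 TPM, and the difference of -0.73 ± 0.54 had an adjusted p of 0.565. In total RNA, by contrast, Tpp1 stood at 199, 148 and 154 TPM in normoxic and 193, 141 and 178 TPM in hypoxic controls, and 178, 131 and 134 TPM in normoxic and 181, 139.6 and 178 TPM in hypoxic labelled knockouts, with no such jump. Tfe3 stood in TRAP RNA at 54.7, 63.4 and 47.9 TPM in normoxic and 64.1, 50.3 and 39.1 TPM in hypoxic controls, and 24.2, 30.8 and 38.4 TPM in normoxic and 28.4, 20.1 and 2.67 TPM in hypoxic labelled knockouts, with hypoxic KO-301 alone near the bottom. Idua, which removes iduronic acid from glycosaminoglycans, stood in TRAP RNA at 4.58, 1.32 and 13.5 TPM in normoxic and 16.6, 1.17 and 2.02 TPM in hypoxic controls, and 1.55, 0.613 and 0.598 TPM in normoxic and 0.788, 1.28 and 1.35 TPM in hypoxic labelled knockouts. The normoxic HET-129 and hypoxic HET-97 libraries of Idua were far above the other 10, which overlapped between the genotypes.

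The change in hypoxia was not shown to differ between the fractions for any member. With limma 0 of 38 passed and 2 had an unadjusted p under 0.05, and over 12918 genes 0% were called, with 708 under 0.05 unadjusted. Those members were Asah1, whose change was 0.46 ± 0.17 greater in TRAP than in total RNA, and Cd63 at -0.17 ± 0.07, both with an adjusted p of 0.816. For Lipa the difference was 0.17 ± 0.12 and for Gm2a 0.18 ± 0.10.

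**Figure D4:**
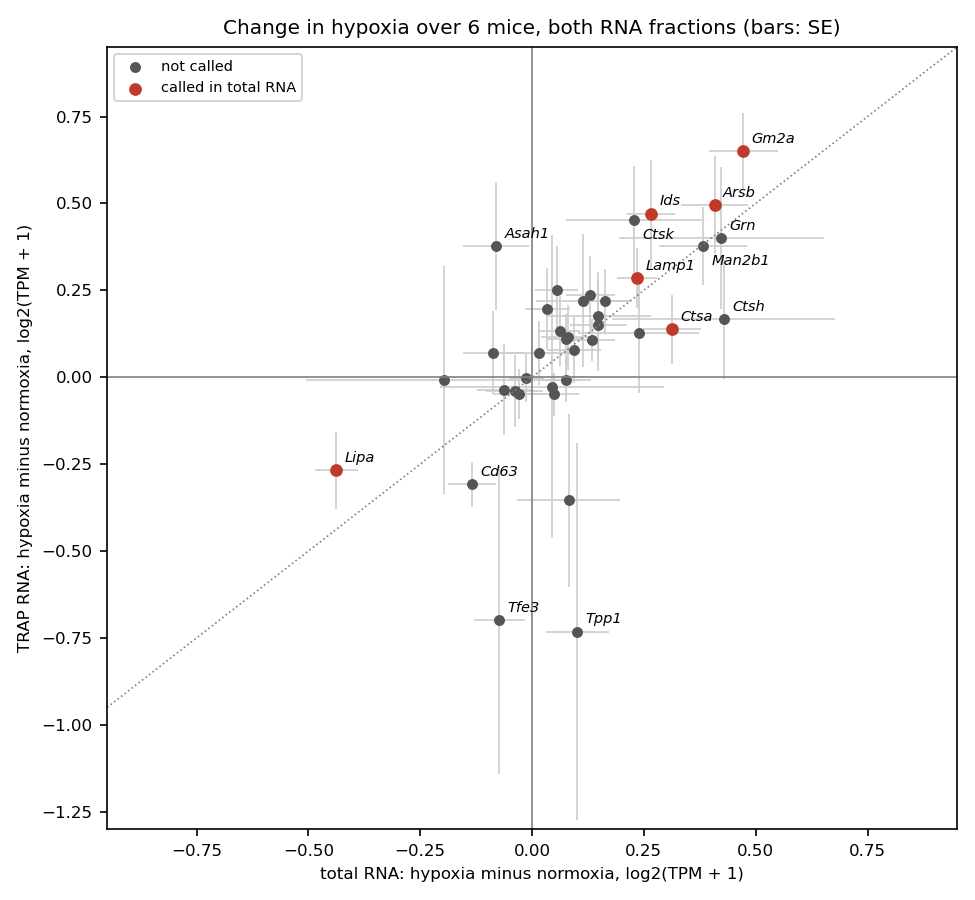
Change in hypoxia in total RNA (horizontal) against that in TRAP RNA (vertical) for the 38 members, both on the log2(TPM + 1) scale with bars of 1 SE over 6 mice; red points are the 6 members called in total RNA and the dotted line marks equal change. Gm2a and Arsb lie high on both axes and Lipa low on both, while Tpp1 and Tfe3 have TRAP bars that are several times as long as those of total RNA.

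Ribosome-bound RNA was next set against total RNA, with both oxygen levels averaged within each mouse. On the deposited scale 33 of 38 members were lower and 1 of 38 higher in TRAP RNA at an adjusted p under 0.05, where 64.2% of 12918 genes were lower and 8.17% higher. The median of all genes was itself -0.54, and that of the members was -0.64. Ribosomal protein genes took 14.8 to 29.3% of TRAP libraries and 9.51 to 17.6% of total RNA libraries, and mitochondrially encoded genes 0.0229 to 0.298% and 1.20 to 4.74%. With ribosomal protein and mitochondrial genes left out of the scaling, the median of all genes was -0.48 and that of the members -0.51, with 29 of 38 lower and 3 of 38 higher. After median-of-ratios scaling, which brought the median of all genes to -0.07, 12 of 38 members were higher and 10 of 38 lower (26.8% and 30.5% of all genes), with a median of 0.00. The 10 that were lower on both scales were Ids, Idua, Tfe3, Tpp1, Lipa, Arsb, Ctsc, Asah1, Lamp2 and Manba. The 12 that became higher were Cd63, Ctsh, Ctsz, Mcoln1, Hexa, Grn, Naglu, Ctsd, Glb1, Smpd1, Neu1 and Ctss, of which Cd63 alone was called higher on the deposited scale.

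Ids, at the low end, was lower in TRAP RNA, with a difference of -2.47 ± 0.17 (adjusted p 9.71e-06) and -1.87 after rescaling, in 6 of 6 mice; its TRAP values above, 1.99 to 13.1 TPM, did not reach its lowest total value. Idua differed by -2.17 ± 0.36 (adjusted p 0.00048) and by -1.66 after rescaling. In total RNA, Idua stood at 33.6, 27.7 and 29.2 TPM in normoxic and 16.3, 23.1 and 28.6 TPM in hypoxic controls. Idua in labelled knockouts was at 26.2, 2.35 and 2.22 TPM in normoxia and 23.0, 4.06 and 6.15 TPM in hypoxia. KO-281 and KO-301 were at 2.22 to 6.15 TPM in total RNA and every other library at 16.3 TPM or more. Tfe3 was lower in TRAP RNA, with a difference of -1.70 ± 0.27 (adjusted p 0.000361) and -1.06 after rescaling, with no overlap between the 12 libraries of each fraction. Tpp1 differed by -1.65 ± 0.14 and -1.003, also without overlap. Lipa had the smallest adjusted p of the members, 7.19e-06, with a difference of -1.45 ± 0.08 and -0.80 after rescaling, and Arsb differed by -1.33 ± 0.10 and -0.75.

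Ctsc, a dipeptidyl peptidase that activates the serine proteases of granules, stood in total RNA at 233, 189 and 432 TPM in normoxic and 232, 194 and 469 TPM in hypoxic controls. Ctsc in labelled knockouts was at 199.8, 177 and 489 TPM in normoxia and 202, 162 and 548 TPM in hypoxia. In TRAP RNA, Ctsc stood at 107, 96.1 and 128 TPM in normoxic and 116, 96.0 and 224 TPM in hypoxic controls, and 75.4, 83.3 and 258 TPM in normoxic and 81.7, 86.1 and 275 TPM in hypoxic labelled knockouts. HET-129 and KO-301 were highest in both fractions, and each library was lower in TRAP RNA than its total partner, with a mean difference of -1.12 ± 0.08 (-0.47 after rescaling). Asah1, which splits ceramide, stood in total RNA at 294, 219.6 and 275 TPM in normoxic and 217, 207 and 296 TPM in hypoxic controls. Asah1 in labelled knockouts was at 274, 237 and 242 TPM in normoxia and 248, 241 and 249.7 TPM in hypoxia. In TRAP RNA, Asah1 stood at 138, 120.5 and 55.4 TPM in normoxic and 160.1, 114 and 152 TPM in hypoxic controls, and 118, 107 and 89.8 TPM in normoxic and 123, 136 and 109 TPM in hypoxic labelled knockouts. The fractions did not overlap, and the difference was -1.11 ± 0.11 (-0.45 after rescaling). Lamp2, a membrane protein needed for autophagy, stood in total RNA at 459, 334 and 463 TPM in normoxic and 483, 323 and 441 TPM in hypoxic controls. Lamp2 in labelled knockouts was at 314, 251 and 371 TPM in normoxia and 345, 280.7 and 393 TPM in hypoxia. In TRAP RNA, Lamp2 stood at 225, 214 and 124 TPM in normoxic and 273, 194 and 231 TPM in hypoxic controls, and 127, 109 and 177 TPM in normoxic and 145, 131 and 178 TPM in hypoxic labelled knockouts, a difference of -1.09 ± 0.10 (-0.44 after rescaling). Hypoxic TRAP values of Lamp2 were lower in every labelled knockout than in any control, whereas the other groups overlapped. Averaged over oxygen, the genotypes overlapped for Lamp2 in both fractions. The share of all genes whose genotypes lie apart at 1 oxygen level was not determined.

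Manba, beta-mannosidase, stood in total RNA at 29.2, 27.5 and 19.4 TPM in normoxic and 28.7, 27.3 and 16.4 TPM in hypoxic controls. Manba in labelled knockouts was at 27.0, 27.5 and 22.0 TPM in normoxia and 26.8, 25.2 and 22.4 TPM in hypoxia. In TRAP RNA, Manba stood at 14.2, 15.9 and 8.06 TPM in normoxic and 15.2, 13.1 and 9.85 TPM in hypoxic controls, and 15.4, 14.3 and 10.4 TPM in normoxic and 12.0, 12.3 and 12.4 TPM in hypoxic labelled knockouts. The 6 mice were close to each other in this comparison, from -0.94 to -0.88, and the mean was -0.92 ± 0.08 (-0.30 after rescaling). Gusb, beta-glucuronidase, stood in total RNA at 289.8, 269 and 171 TPM in normoxic and 288, 298 and 187 TPM in hypoxic controls. Gusb in labelled knockouts was at 250.3, 208 and 152 TPM in normoxia and 287, 209 and 189 TPM in hypoxia. In TRAP RNA, Gusb stood at 181, 176.5 and 92.9 TPM in normoxic and 179, 196 and 149 TPM in hypoxic controls, and 143, 124 and 112 TPM in normoxic and 189, 154 and 104 TPM in hypoxic labelled knockouts, a difference of -0.64 ± 0.06, but 0.02 after rescaling, where it was no longer called. Scarb2, the membrane receptor that carries glucocerebrosidase to the lysosome, stood in total RNA at 70.9, 63.0 and 47.3 TPM in normoxic and 68.6, 55.2 and 45.5 TPM in hypoxic controls, and 60.9, 53.3 and 48.9 TPM in normoxic and 62.8, 47.6 and 55.5 TPM in hypoxic labelled knockouts. In TRAP RNA, Scarb2 stood at 33.6, 32.2 and 23.4 TPM in normoxic and 30.6, 26.9 and 25.7 TPM in hypoxic controls, and 31.5, 35.2 and 31.6 TPM in normoxic and 34.9, 29.4 and 34.2 TPM in hypoxic labelled knockouts. The fractions of Scarb2 did not overlap, with a difference of -0.86 ± 0.09, and -0.21 after rescaling, which was not called. Ppt1, a thioesterase that removes palmitate from proteins, stood in total RNA at 148, 121 and 113 TPM in normoxic and 149, 120.4 and 140.5 TPM in hypoxic controls, and 121, 81.2 and 100.1 TPM in normoxic and 131, 88.4 and 126 TPM in hypoxic labelled knockouts. In TRAP RNA, Ppt1 stood at 87.4, 76.1 and 53.8 TPM in normoxic and 96.0, 74.7 and 91.0 TPM in hypoxic controls, and 74.7, 48.1 and 67.1 TPM in normoxic and 71.1, 41.4 and 85.0 TPM in hypoxic labelled knockouts, lower in all 12 libraries than the total partner, with a difference of -0.74 ± 0.07, and -0.09, not called, after rescaling.

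Ctsl stood in TRAP RNA at 1205, 441 and 406 TPM in normoxic and 1248, 467 and 655 TPM in hypoxic controls, and 574, 160.0 and 437 TPM in normoxic and 687, 179 and 457 TPM in hypoxic labelled knockouts, again highest in HET-97 and lowest in KO-281, with a difference from total RNA of -0.84 ± 0.08 and of -0.18, not called, after rescaling. Ctsb stood in TRAP RNA at 4274, 3223 and 2822 TPM in normoxic and 4261, 3152 and 3789 TPM in hypoxic controls, and 3127, 2504 and 3678 TPM in normoxic and 3456, 2759 and 3642 TPM in hypoxic labelled knockouts, and its difference of -0.66 ± 0.07 came to 0.00 after rescaling. Psap stood in TRAP RNA at 3744, 2755 and 2937 TPM in normoxic and 4009.8, 2537 and 3076 TPM in hypoxic controls, and 2688, 3117 and 3086 TPM in normoxic and 3029.9, 3529 and 3648 TPM in hypoxic labelled knockouts, with differences of -0.75 ± 0.09 and -0.09. None of Ctsl, Ctsb and Psap was called after rescaling. Ctsd stood in TRAP RNA at 6858, 4278 and 4139 TPM in normoxic and 5965, 4125 and 4439.6 TPM in hypoxic controls, and 4022, 2729.6 and 3159.7 TPM in normoxic and 4284, 3031 and 2868 TPM in hypoxic labelled knockouts, and its sign turned from -0.28 ± 0.06 on the deposited scale to 0.37 after rescaling, called on each.

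Cd63, Ctsh and Ctsz stood at the high end. Cd63 was higher in TRAP RNA by 0.29 ± 0.11 (adjusted p 0.0356), from -0.05 in HET-97 to 0.71 in HET-129, and by 0.94 after rescaling. On the deposited scale its call was lost without any one of HET-129, KO-176, KO-281 and KO-301, where the difference ran from 0.20 to 0.31, and also with no filter, no mean-variance trend or no replicate block. Without HET-129 and KO-301 together the difference was 0.10. In total RNA, Ctsh stood at 59.4, 159 and 134 TPM in normoxic and 68.4, 94.1 and 162 TPM in hypoxic controls. Ctsh in labelled knockouts was at 132, 42.5 and 145 TPM in normoxia and 172, 92.9 and 375 TPM in hypoxia. In TRAP RNA, Ctsh stood at 62.3, 106 and 196 TPM in normoxic and 40.9, 149.6 and 350.4 TPM in hypoxic controls, and 152, 73.8 and 318 TPM in normoxic and 134, 84.7 and 379.9 TPM in hypoxic labelled knockouts, higher in 4 of 6 mice by 0.23 ± 0.14 (adjusted p 0.18) and by 0.88 after rescaling, where it was called. Ctsz, a carboxypeptidase, stood in total RNA at 1051, 1117 and 2002 TPM in normoxic and 991, 935 and 1933 TPM in hypoxic controls, and 1071, 1234 and 2412 TPM in normoxic and 1059, 1301 and 2684 TPM in hypoxic labelled knockouts. In TRAP RNA, Ctsz stood at 1078, 1063 and 2542 TPM in normoxic and 980.3, 898 and 2278 TPM in hypoxic controls, and 1028, 1218 and 3102 TPM in normoxic and 990.4, 1328 and 3496 TPM in hypoxic labelled knockouts. KO-301 was highest and HET-129 next in both fractions, and the difference was 0.09 ± 0.08 (0.75, called, after rescaling). Mcoln1 stood in TRAP RNA at 37.1, 31.8 and 51.8 TPM in normoxic and 18.7, 36.2 and 19.1 TPM in hypoxic controls, and 19.4, 29.4 and 44.1 TPM in normoxic and 24.5, 37.2 and 28.5 TPM in hypoxic labelled knockouts, a difference of -0.03 ± 0.08 that became 0.60, called, after rescaling. Tfeb stood in TRAP RNA at 27.9, 27.8 and 3.55 TPM in normoxic and 25.5, 6.72 and 6.33 TPM in hypoxic controls, and 3.92, 1.70 and 17.0 TPM in normoxic and 5.96, 3.10 and 19.5 TPM in hypoxic labelled knockouts, a difference of -1.08 ± 0.27 with mice from -2.23 to -0.16, and -0.49, not called, after rescaling.

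**Figure D5:**
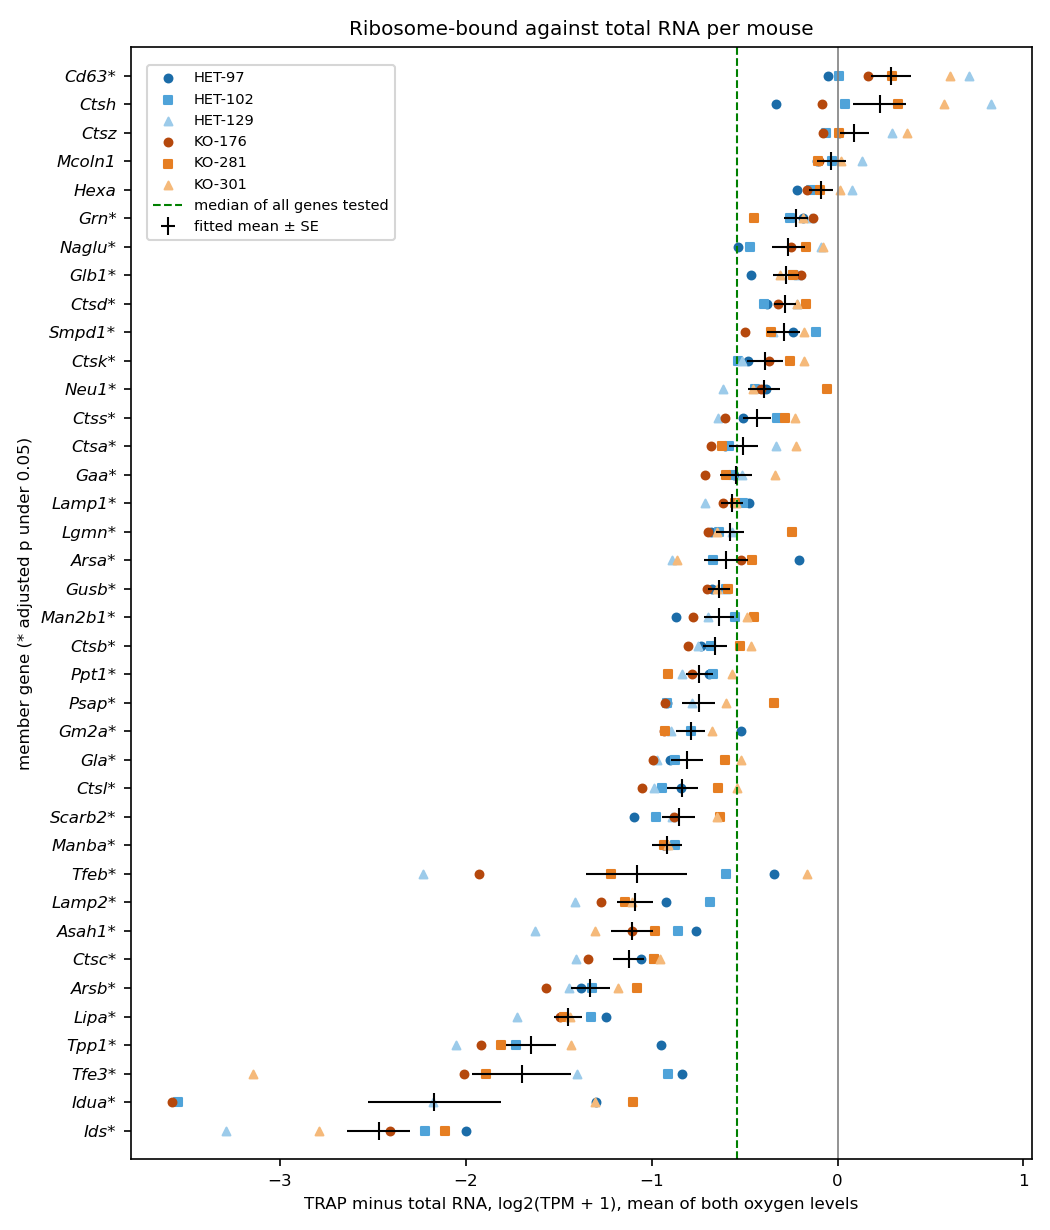
TRAP minus total RNA for the 38 members on the log2(TPM + 1) scale, with both oxygen levels averaged; coloured points are the 6 mice, black bars the fitted mean ± SE, the dashed line the median of all genes tested (-0.54), and a star marks an adjusted p under 0.05. Ids, Idua, Tfe3 and Tpp1 lie furthest below the dashed line and Cd63, Ctsh and Ctsz furthest above it.

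The labelled knockouts were compared with controls over 3 mice each, with both oxygen levels averaged within a mouse. In total RNA 0 of 38 members and 0% of 12403 genes passed with limma, and 1 member and 429 genes had an unadjusted p under 0.05. That member was Idua, at -1.75 ± 0.67 with an adjusted p of 0.901. KO-176, at 26.2 and 23.0 TPM, lay among the controls. Of the members 9 of 38 were above 0 (23.7%, against 33.7% of all genes), and their median was -0.19 where that of all genes was -0.11. After median-of-ratios scaling 16 of 38 were above 0, with a median of -0.05 (0.005 over all genes). With 1 mouse left out the count ran from 4 of 38 (without KO-301) to 10 of 38 (without HET-97 or KO-281). The median then ran from -0.32 without KO-176 (-0.17 over all genes) to -0.10 without HET-97 (-0.07 over all genes). It was -0.29 without HET-129 (-0.18 over all genes) and -0.12 without KO-281 (also -0.12 over all genes). Without HET-129 and KO-301 together 6 of 38 were above 0, with a median of -0.26 against -0.12 over all genes. The macrophage marker sum was also lower in the labelled knockouts, and its part in these differences was not tested. Tfeb was the 1 member whose 3 labelled knockouts all lay below the 3 controls (7.07% of all genes), at -0.84 ± 0.44, and 0 lay above (1.95% of all genes). The gap for Tfeb was narrow, with HET-102 at 4.50 and KO-176 at 4.48 on the log2(TPM + 1) scale, and single libraries of the genotypes overlapped. By role, 11 of 13 glycosidases and sulfatases and 5 of 5 of the lipid group were below 0, and 5 of 9 cathepsins and legumain above it. Ctsl differed by -1.04 ± 0.62, Ctsd by -0.66 ± 0.32 and Glb1, beta-galactosidase, by -0.53 ± 0.24, with adjusted p of 0.901 for each of the 3. The SE of these differences are several times those of the hypoxia comparison, which was made within mice, and the missed threshold does not show that the genotypes were alike.

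In TRAP RNA 0 of 38 members and 0% of 11676 genes passed with limma for genotype, and 2 members and 321 genes had an unadjusted p under 0.05. Those were Tfe3, at -1.39 ± 0.35, and Idua, at -1.40 ± 0.53, both with an adjusted p of 0.999. Averaged over oxygen, the labelled knockouts lay below the controls for Ctsd, Idua and Tfe3 (3 of 38, 4.87% of all genes) and above them for Naglu and Scarb2 (2 of 38, 2% of all genes). Apart from Tfe3 the gaps were narrow on the log2(TPM + 1) scale, and single libraries of the genotypes overlapped. The nearest control and labelled knockout were at 12.04 and 12.02 for Ctsd and at 1.17 and 1.09 for Idua. For Naglu they were at 6.05 and 6.07, and for Scarb2 at 5.047 and 5.052. Tfe3, as listed above, was at 2.67 to 38.4 TPM in TRAP RNA of the labelled knockouts and at 39.1 to 64.1 TPM in controls, while in total RNA the genotypes overlapped with a difference of -0.09 ± 0.14. Naglu, which removes N-acetylglucosamine from heparan sulfate, differed by 0.09 ± 0.18 and Scarb2 by 0.19 ± 0.20.

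Whether the genotypes differed in their change with hypoxia was tested on the differences within mice. In total RNA 0 of 38 members and 0% of 12403 genes passed with limma, and 2 members and 574 genes had an unadjusted p under 0.05. Those members were Ctsh, with changes of 0.20, -0.75 and 0.27 in controls and 0.38, 1.11 and 1.36 in labelled knockouts, and Idua, whose difference was 0.95 ± 0.40. The Ctsh difference of 1.04 ± 0.35 had an adjusted p of 0.965. The changes of the genotypes did not overlap for Ctsb, Ctsh, Ctsz, Lipa, Psap and Lamp2, all higher in the labelled knockouts (6 of 38, 10.2% of all genes in either direction). For Lipa they were -0.51, -0.51 and -0.51 in controls and -0.39, -0.27 and -0.43 in labelled knockouts, a difference of 0.15 ± 0.08 with an adjusted p of 0.965. Of the members 30 of 38 were above 0 (78.9%, against 55.9% of all genes). In TRAP RNA 0 of 38 members and 0% of 11676 genes passed, 0 members and 432 genes had an unadjusted p under 0.05, and the changes did not overlap for Ctsz, Gaa, Psap and Cd63, higher in the labelled knockouts, and Ids, lower (5 of 38, 9.11% of all genes in either direction). There 16 of 38 members were above 0 (42.1%, against 48.0% of all genes), with a median of -0.059 against -0.017 over all genes. Without mouse HET-129 the count was 28 of 38, and both medians turned sign, to 0.116 and 0.056. Without HET-129 and KO-301 the count was 27 of 38.

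The neighbouring lysosomal gene lists were described in the same hypoxia comparison in total RNA. There 47.8% of all 12403 genes were above 0, with a median of -0.01, and 1.56% were called higher and 2.4% lower. Other lysosomal hydrolases were above 0 for 28 of 32 tested genes with a median of 0.21, and 3 were called higher and 0 lower. These were Acp5, an acid phosphatase that is also among the osteoclast markers, at 0.64 ± 0.11, Hyal1, which cuts hyaluronan, at 0.60 ± 0.11, and Galns, a sulfatase, at 0.29 ± 0.06, with adjusted p of 0.0261, 0.0307 and 0.0441. Subunits of the proton pump that acidifies the lysosome, the V-ATPase, were above 0 for 6 of 18 genes with a median of -0.14, and 3 were called lower and 0 higher. Atp6v0d2, another of the osteoclast markers, differed by -0.45 ± 0.08, Atp6v1c1 by -0.36 ± 0.06 and Atp6v1g1 by -0.28 ± 0.06, with adjusted p of 0.0278, 0.0302 and 0.0391. None was called among 24 other membrane proteins, where 13 were above 0 and Slc29a3 was nearest at 0.34 ± 0.09 (adjusted p 0.0738). The same held for 14 sorting genes (9 above 0, Vps26a at -0.19 ± 0.06), 17 genes of the MiT factors and mTORC1 (7 above 0, Rptor at 0.29 ± 0.09), 3 cystatins (2 above 0, Cstb at -0.14 ± 0.05) and 20 autophagy genes (12 above 0, Optn at -0.43 ± 0.10). Of 6 hypoxia-inducible genes used as a check of the treatment, 5 were called higher in total RNA and 2 in TRAP RNA, with Egln3 at 2.02 ± 0.19 and Pgk1 at 0.75 ± 0.05 in total RNA. In TRAP RNA under hypoxia, and for genotype in either fraction, 0 genes of the lysosomal, sorting, mTORC1, cystatin and autophagy lists were called. Over all genes, 3 of 11676 were called higher and 1 lower in TRAP RNA under hypoxia, and 0 for genotype in either fraction.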

How the data were processed

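The authors deposited TPM (length-scaled transcript shares) for 52636 genes in one table each for total and TRAP RNA. The submitters' processing notes name HISAT, DESeq2 and GRCm38, and the sources used here give no order, version or setting. Each library's TPM summed to between 999629 and 999969, so read depth is unknown and no counting interval is given. The tables' 30 other columns were not used. Of the symbols 27 were written as dates and 233 identifiers were not matched to GENCODE M21.

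Values were taken as log2(TPM + 1), so that changes of low genes are understated. A gene was tested where 3 or more fitted libraries reached 1 TPM. Linear models with a mean-variance trend (limma 3.58.1 in R 4.3.3) were fitted over all genes, two-sided, with Benjamini-Hochberg adjustment over all genes and a threshold of 0.05. Hypoxia and fraction were tested with the mouse as a block, and genotype and its interactions on 1 value per mouse. Libraries with one mouse number come from one animal, per the labels, and deviations of paired libraries from their group means correlated at 0.379 to 0.792. Fits were also run on simulated data, whose outcome is not given here. Mouse effects were drawn there for each gene apart, so shifts shared by many genes of a mouse were not simulated. Alternatives were other pseudocounts, filters, scalings and subsets of mice.

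The members and lists were chosen by gene function, with earlier results of these data known, so the tests on them are not independent of the choice. Values in every library are given for at most 15 members past a threshold by smallest adjusted p, the 3 of highest mean, the 3 of largest fraction difference in each direction, and Tfeb, Tfe3 and Mcoln1. Promoters and motifs came from RefSeq on GRCm38.p6.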

Additional observations from a re-analysis of the deposited data

Results flagged for a closer look

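Gaa, acid alpha-glucosidase, which breaks down glycogen in the lysosome, was singled out because its change in hypoxia went opposite ways in the genotypes in TRAP RNA. The change was -0.24, -0.18 and -0.19 on the log2 scale in the 3 controls and 0.03, 0.40 and 0.94 in the 3 labelled knockouts, a difference of 0.66 ± 0.28 (SE) with a limma adjusted p of 0.999. In total RNA the changes were -0.08, -0.12 and 0.31 in controls and 0.02, 0.41 and 0.89 in labelled knockouts, which overlapped.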

How the results depend on the processing

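Hypoxia in total RNA gave 6 called members, and 6 with a pseudocount of 0.1, a filter of 5 TPM, quantile normalisation or median-of-ratios scaling. Under each of the last 2 settings 1 of the 6 members lost its call and Man2b1 gained one. The count was 2 with no filter on low values, 3 without the mean-variance trend, 1 to 3 when 1 mouse was left out, and 0 without HET-129 and KO-301. Calls over all genes fell too, from 492 to 201 with no filter and 286 without the trend. They fell to between 48 and 224 when 1 mouse was left out, and to 8 without HET-129 and KO-301. With no replicate block the count of members was 0, as was that of all 12403 genes, so the calls rest on the pairing by mouse. Lipa kept its call in 12 of 14 settings, Gm2a in 7, Arsb in 6, Ids in 5, and Ctsa and Lamp1 in 3, each without change of sign. When 1 mouse was left out, the adjusted p ran from 0.0245 to 0.0481 for Lipa, 0.0379 to 0.0851 for Gm2a, 0.0426 to 0.105 for Arsb, 0.0660 to 0.123 for Ids, 0.0699 to 0.107 for Ctsa and 0.0705 to 0.110 for Lamp1.

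TRAP against total RNA gave 34 called members, 32 to 34 when 1 mouse was left out, 24 with no replicate block, 32 when ribosomal and mitochondrial genes were left out of the scaling, and 22 with median-of-ratios scaling. That scaling turned the sign of 16 members, to 0.37 for Ctsd, 0.21 for Ctsk, 0.22 for Ctss, 0.077 for Lgmn, 0.15 for Ctsa, 0.37 for Glb1, 0.080 for Gaa, 0.016 for Gusb, 0.57 for Hexa, 0.0081 for Man2b1, 0.38 for Naglu, 0.25 for Neu1, 0.33 for Smpd1, 0.086 for Lamp1, 0.60 for Mcoln1 and 0.43 for Grn. Leaving out HET-97 or HET-102 ended the call of Naglu, leaving out KO-176 that of Smpd1, and leaving out HET-97 made Ctsh pass. The other 6 comparisons gave 0 called members under every setting. Depth is unknown, so limits of detection cannot be given.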
